A study of Mus musculus with 6 samples.

Results

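The 10 genes described here are known for control of the G1 phase of the cell cycle, and their messenger RNA was measured in sorted mouse macrophages. They are the D cyclins Ccnd1, Ccnd2 and Ccnd3, their kinases Cdk4 and Cdk6, and the CDK inhibitors Cdkn1a, Cdkn1b and Cdkn2c. The retinoblastoma gene Rb1 and Myc complete the set. The 10 were taken by gene symbol from the deposited table of 15469 genes, and all were found and had enough counts to be tested. The libraries came from peritoneal macrophages of mice of the CAIA model, an abbreviation that the labels do not spell out. RELM-α is a resistin-like protein of alternatively activated macrophages, and cells with it on their surface were sorted and plated, and messenger RNA was sequenced from PU.1-deleted cells (3 libraries labelled KO) and from control cells (3 libraries labelled WT). Both groups share the model, the sort and the culture. The means of deletion, the strain, age and sex of the mice and the time in culture are not stated. No label ties a library to an animal of its own, so the p-values reflect the spread among these samples alone, and that spread may be technical. Values of a group are given in the order of replicates 1, 2 and 3.

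D cyclins bind CDK4 and CDK6 when growth factors such as CSF1 reach a cell, and the complexes phosphorylate the retinoblastoma protein, which releases E2F factors that drive the genes of DNA replication. INK4 inhibitors such as p18 (Cdkn2c) block CDK4 and CDK6, while the CIP and KIP inhibitors p21 (Cdkn1a) and p27 (Cdkn1b) bind cyclin and kinase together and are known both to inhibit CDK2 and to help assemble cyclin D complexes. MYC is a transcription factor that raises biosynthesis and several cell cycle genes. Resident macrophages of the peritoneal cavity can divide in place, and CSF1 is a main growth factor of theirs.

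The D cyclins are separate genes with one shared feature that ties them to Rb1, a short motif near the start of the protein (leucine, any residue, cysteine, any residue, glutamate) that binds the retinoblastoma protein. The first 45 coding bases are shown 5′ to 3′ from the GENCODE M21 transcripts (GRCm38), with the codons of that motif in capitals, to show how the 3 transcripts resemble each other where they share this function and differ around it.
Ccnd1 (chr7:144939649-144939693, minus strand): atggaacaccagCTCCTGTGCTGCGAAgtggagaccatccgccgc
Ccnd2 (chr6:127150729-127150773, minus strand): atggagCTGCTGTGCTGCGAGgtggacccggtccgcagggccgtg
Ccnd3 (chr17:47593655-47593699, plus strand): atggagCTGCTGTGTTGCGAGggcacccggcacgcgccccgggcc
The motif begins at codon 5 in Ccnd1 and at codon 3 in Ccnd2 and Ccnd3. Over the aligned coding bases Ccnd1 and Ccnd2 were 71.3% identical, Ccnd1 and Ccnd3 66.7%, and Ccnd2 and Ccnd3 68.9%, and the longest identical run between any pair was 20 bases. Read in the sense direction, no stretch of 75 bases of the Ccnd1 or Ccnd2 transcripts occurred in a transcript of another gene. For Ccnd3 0.97% did, all in its pseudogene Ccnd3-ps. Transcripts of the opposite strand were not searched for shared stretches. Reads of the 3 cyclins could therefore be told apart from each other by sequence. How the authors' counting treated shared reads is not given.

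The libraries held 17280855 to 18632623 counts. Across all tested genes KO replicate 1 stood apart from KO replicates 2 and 3: its log2 CPM correlated with theirs at Pearson's r of 0.902 and 0.922 and with the WT libraries at 0.955 to 0.959, against 0.99 between KO replicates 2 and 3. These correlations are across genes, which are not independent replicates. Spi1, the gene of PU.1, measured 276.9, 285.5 and 319.7 CPM (read counts scaled to a common TMM-adjusted library size) in the KO libraries against 323.4, 340.2 and 283.7 CPM in WT (edgeR adjusted p = 0.561), so its amount does not show a deletion, and each direction below is one between the labels. A total of 4 Y-linked genes (Ddx3y, Eif2s3y, Kdm5d and Uty) held 12 counts in the libraries labelled KO and 7176 in those labelled WT, so the label cannot be told apart from the sex of the animals.

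All 3 D cyclins and the inhibitor gene Cdkn1a were higher in the libraries labelled KO, and no gene of the 10 was called lower. The comparison asks how gene activity differs in these macrophages when PU.1 is deleted, as the labels have it. By edgeR's quasi-likelihood test, with p adjusted over all 11424 genes tested and a threshold of 0.05, 4 of the 10 were called higher, against a background of 2.26% called higher, 1.06% lower and 3.32% in either direction. DESeq2 called 5 of the 10, all higher, where it called 7.12% of genes higher and 10.8% in all, and limma-voom called 4, where it called 1.9% higher and 2.93% in all. The log2 difference was above 0 for 9 of the 10, with a median of 0.66 against -0.01 over all genes tested. In CPM the 3 KO values all lay above the 3 WT values for 7 of the 10, which held for 18.4% of all genes tested. These calls moved with single libraries. Without KO replicate 1, 7 of the 10 were called higher and 1 lower, in a fit that called 49.6% of all genes tested. With KO replicate 2 or KO replicate 3 left out, edgeR called 0 of the 10 (5 at an unadjusted p under 0.05 in each fit), and 0.13% and 0.0952% of all genes. With WT replicate 1, WT replicate 2 or WT replicate 3 left out it likewise called 0 of the 10 (7, 5 and 6 at an unadjusted p under 0.05), and 0.119%, 0.0427% and 0.0598% of all genes. After GC content and length were corrected for, 4 of the 10 were called, where 6.51% of all genes were, and 9 without KO replicate 1, where 52.7% were. With the replicate number as a block edgeR called 0 of the 10 (5 at an unadjusted p under 0.05) and 0% of all genes (1976 genes at an unadjusted p under 0.05).

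**Figure D1:**
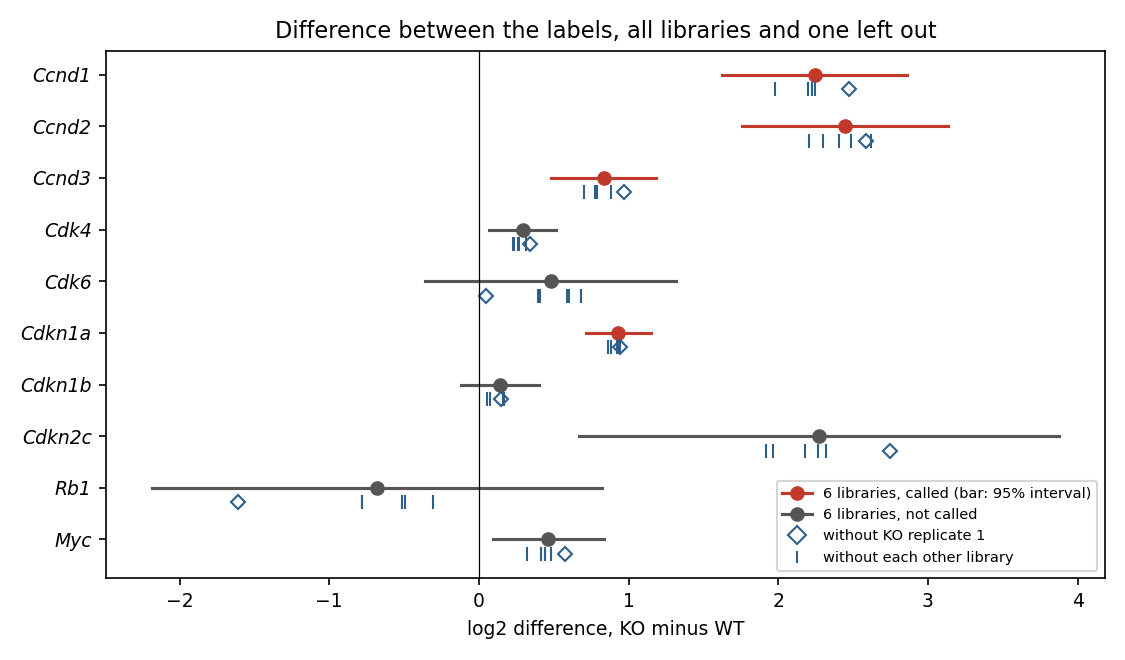
Log2 difference between libraries labelled KO and WT (x axis) for each of the 10 genes (y axis); filled points and bars are the estimate from all 6 libraries and its 95% interval, red where called, and the blue marks below give the estimate with 1 library left out. The estimate of Rb1 lies below 0 in every fit shown and those of the other genes lie above 0. Without KO replicate 1, Rb1 lies at -1.61 and Cdk6 at 0.04.

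Ccnd1 (chr7:144929931-144939831; whole genes are placed as RefSeq has them on GRCm38.p6) encodes cyclin D1, the D cyclin most tied to growth factor signals. It measured 90, 174.8 and 134.8 CPM in the KO libraries against 29.2, 27.4 and 27.7 CPM in WT. The groups did not overlap, the lowest KO library stood at 3.2 times the WT mean, and the WT libraries lay close together while the KO libraries were spread. Ccnd1 rose 4.74-fold, from 28.1 ± 0.958 to 133.2 ± 42.4 CPM (SD, n = 3 each; log2 2.24, SE 0.25, 95% interval 1.63 to 2.86, edgeR adjusted p = 0.0203).

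Ccnd2 (chr6:127125162-127152188) encodes cyclin D2 and was the scarcest of the 3 in every library. The KO libraries held 166, 254 and 215 counts of it and the WT libraries 38, 24 and 42, or 9.14, 13 and 11.2 CPM against 2.21, 1.39 and 2.52. Its groups did not overlap either, although the WT values rest on few reads. Ccnd2 rose 5.46-fold (log2 2.45, SE 0.282, 95% interval 1.76 to 3.13, edgeR adjusted p = 0.0202).

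Ccnd3 (chr17:47505051-47599689) encodes cyclin D3, the main D cyclin transcript of the WT libraries. It measured 65.6, 82.4 and 89.4 CPM in the KO libraries against 48.9, 43.3 and 41.1 CPM in WT. Its groups did not overlap, with KO replicate 1 again the nearest to WT. Ccnd3 rose 1.78-fold, from 44.4 ± 4 to 79.1 ± 12.3 CPM (log2 0.83, SE 0.145, 95% interval 0.48 to 1.19, edgeR adjusted p = 0.0446). Upper-quartile factors ended that call (edgeR adjusted p = 0.0613, range over its 15 alternatives 2.57e-05 to 0.254).

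**Figure D2:**
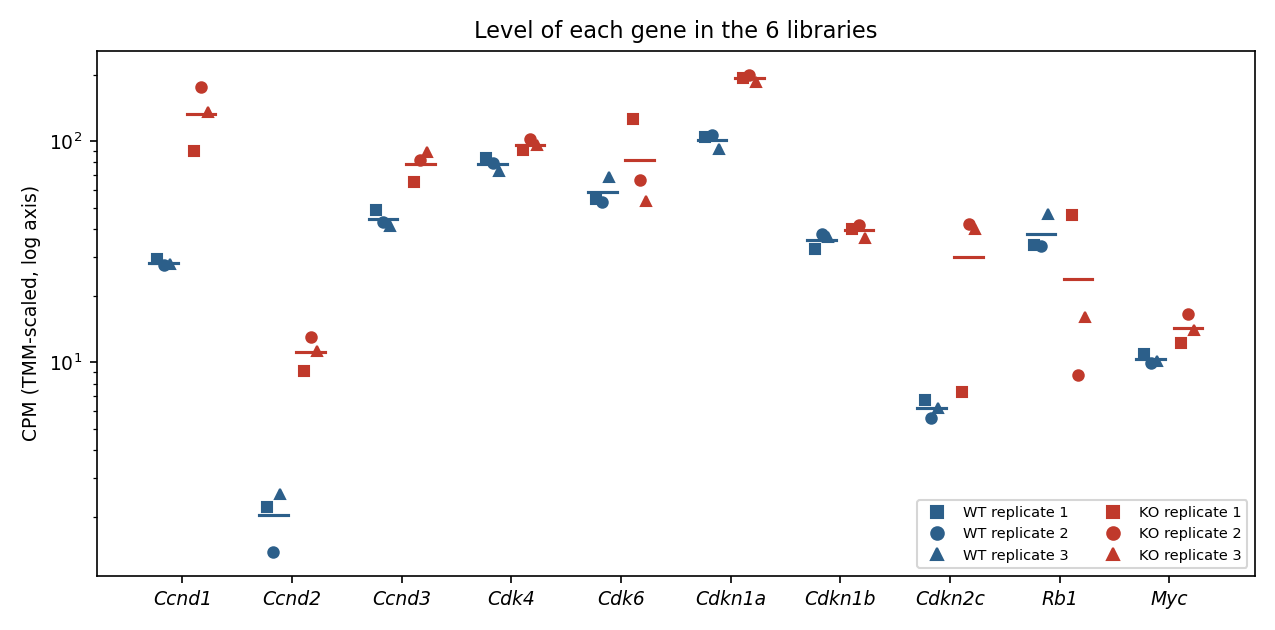
CPM on TMM-scaled library sizes (log y axis) of the 10 genes in each library; blue is WT and red is KO, the symbol gives the replicate, and the bars are the group means. KO replicate 1 (red squares) lies with KO replicates 2 and 3 for the D cyclins and Cdkn1a but beside the WT libraries for Cdkn2c and Rb1.

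The makeup of the D cyclin pool differed as well as its size. In TPM, the authors' measure per transcript length that allows genes to be compared, the D cyclin total was 118.7, 164.4 and 152.3 in the KO libraries and 56.2, 51 and 52 in the WT libraries, 2.73 times higher on average. Ccnd1 made up 37.7%, 48% and 40.5% of that total in the KO libraries and 21.1%, 22.5% and 23.8% in the WT libraries. The mean share was 42.1 ± 5.36% against 22.5 ± 1.32% (SD, n = 3 each), a difference of 19.6 percentage points. Ccnd3 went the other way in share, at 55.7 ± 5.32% against 76.5 ± 1.53%, though its level was higher, and Ccnd2 was at 2.26 ± 0.158% against 1.03 ± 0.32%. For both the total and the Ccnd1 share the groups did not overlap and the exact two-sided permutation test over 20 assignments gave p = 0.1, the smallest that 3 against 3 libraries allow.

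**Figure D3:**
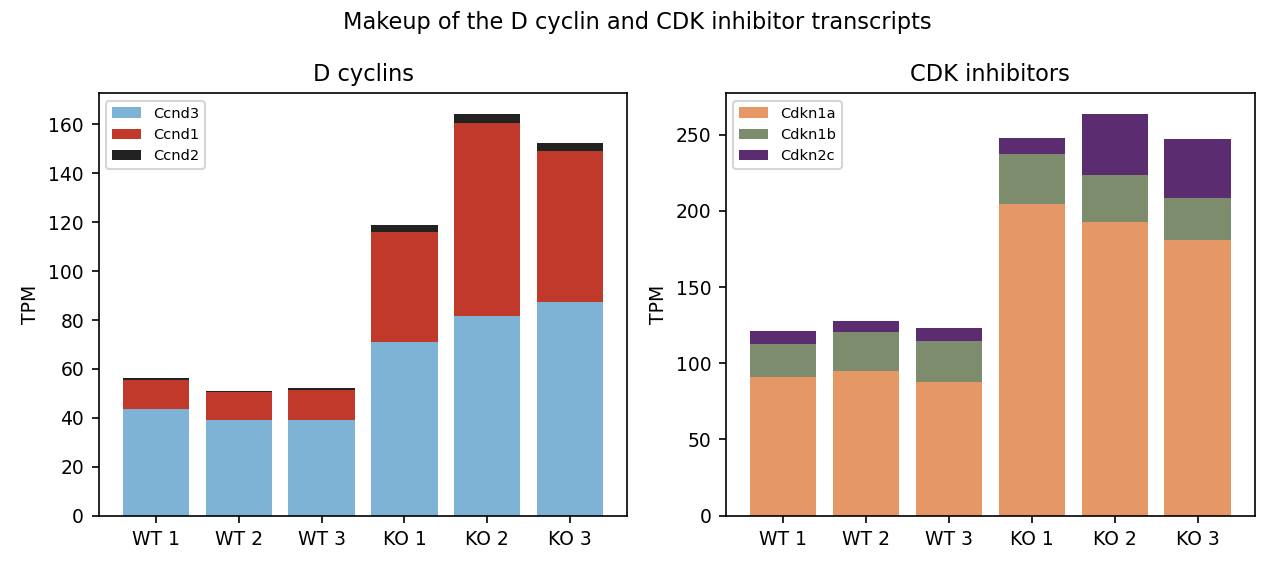
TPM (y axis, from 0) of the D cyclins (left) and of the CDK inhibitors (right) stacked for each library (x axis). The D cyclin totals lie between 118.7 and 164.4 in the KO libraries and between 51 and 56.2 in the WT libraries, and Cdkn2c (purple) widens in KO replicates 2 and 3 but not in KO replicate 1.

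Of the kinases, neither passed the test. Cdk4 (chr10:127063535-127067288), the catalytic partner present at the higher level, measured 91.5, 101.7 and 95.9 CPM in the KO libraries against 83.7, 79.2 and 73.2 CPM in WT. The groups did not overlap but differed by only 1.22-fold (log2 0.29, SE 0.0908, 95% interval 0.07 to 0.51, edgeR adjusted p = 0.134). The promoter of Cdk4 is shown because Cdk4 is a textbook MYC target and Myc is among the 10 genes. The 250 bases before its start in the RefSeq table (GRCm38.p6, chr10:127063285-127063534, plus strand) held 4 E-boxes (CACGTG, which reads the same on both strands, in capitals), the site that MYC and MAX bind.
Cdk4: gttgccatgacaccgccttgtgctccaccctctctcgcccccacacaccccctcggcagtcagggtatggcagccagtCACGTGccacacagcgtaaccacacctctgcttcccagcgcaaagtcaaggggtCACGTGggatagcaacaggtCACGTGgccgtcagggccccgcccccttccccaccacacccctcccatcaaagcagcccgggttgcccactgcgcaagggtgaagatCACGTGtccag
An E-box occurred in 7.15% of all 32851 RefSeq promoter windows of the same build (250 bases before to 50 after a start). The table had windows for Ccnd3, Cdk4, Cdk6, Cdkn1a, Cdkn1b and Cdkn2c, and besides Cdk4 those of Cdk6 and of one of the starts of Cdkn2c held 1 E-box each. The letters GAGGAAGT, a PU.1 motif searched on both strands, were in none of the windows of these 6 genes and in 3.2% of all windows. These matches describe the letters only.

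Cdk6 (chr5:3341004-3531008), the other partner kinase, was highest in KO replicate 1. It was at 126.4 CPM in KO replicate 1 but at 66.5 and 53.7 CPM in KO replicates 2 and 3, against 54.7, 53.2 and 68.8 CPM in the WT replicates. KO replicate 1 was thus at 2.14 times the WT mean and the other KO libraries lay within the WT range (log2 0.48, SE 0.339, 95% interval -0.36 to 1.32, edgeR adjusted p = 0.417). Without KO replicate 1 the log2 difference was 0.04, but in the fit that also corrected for GC content and length it was 0.48 and called (edgeR adjusted p = 0.0312, range over its 15 alternatives 0.0312 to 0.82). In TPM Cdk6 made up 12.5%, 6.29% and 5.42% of the Cdk4 and Cdk6 sum in the KO libraries and 6.31%, 6.5% and 8.89% in the WT libraries (exact two-sided permutation p = 1), and the mean difference turned from 0.829 to -1.38 percentage points without KO replicate 1.

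Among the inhibitors, Cdkn1a had the smallest adjusted p of the 10 genes. Cdkn1a, which encodes p21 and is the best known p53 target, measured 193.4, 199.8 and 185.2 CPM in the KO libraries against 104.7, 106.2 and 92.3 CPM in WT. All 3 KO libraries were close to each other, at 1.83 to 1.98 times the WT mean, including KO replicate 1. Cdkn1a rose 1.91-fold, from 101.0 ± 7.64 to 192.8 ± 7.31 CPM (log2 0.93, SE 0.0895, 95% interval 0.71 to 1.15, edgeR adjusted p = 0.0147). In the deposited table its listed range begins at 1789861 on chromosome 17 and ends at 29100722, while RefSeq has it at 29090979 to 29100722. The table's range is too wide to judge overlap, but at the RefSeq position no other RefSeq gene overlapped Cdkn1a. In its transcripts 1.84% of the stretches of 75 bases, read in the sense direction, also occurred in transcripts of other genes.

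Cdkn1b (chr6:134920401-134925525), which encodes p27, a brake of quiescent cells, was not called. It measured 40.1, 41.8 and 36.4 CPM in the KO libraries against 32.5, 37.8 and 36.8 CPM in WT, and the groups overlapped (1.1-fold, log2 0.14, SE 0.107, 95% interval -0.12 to 0.40, edgeR adjusted p = 0.435). The size of its difference depended on whether GC content and length were corrected for, which gave a log2 value of 0.55 with all libraries (edgeR adjusted p = 0.187) and a called one of 0.77 without KO replicate 1 (edgeR adjusted p = 0.00145, range over its 15 alternatives 0.00145 to 0.819).

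Cdkn2c (chr4:109660876-109666756), the INK4 inhibitor p18, was high in only part of the KO libraries. KO replicates 2 and 3 held 42.3 and 40 CPM, but it was at 7.32 CPM in KO replicate 1, next to 6.75, 5.6 and 6.19 CPM in WT. KO replicate 1 was at 1.18 times the WT mean and the other KO libraries at 6.84 and 6.48 times. Cdkn2c was not called (4.83-fold, log2 2.27, SE 0.65, 95% interval 0.67 to 3.88, edgeR adjusted p = 0.12). Without KO replicate 1 it was called (log2 2.75, edgeR adjusted p = 3.54e-06, range over its 15 alternatives 6.36e-07 to 0.378), and DESeq2 called it with all 6 libraries (adjusted p = 0.00317). In the authors' deposited table its q-value was 0.00394, and Ccnd1, Ccnd2, Ccnd3 and Cdkn1a were the other genes of the 10 under 0.05 there.

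Summed over Cdkn1a, Cdkn1b and Cdkn2c, the inhibitor transcripts were 2.04 times higher in the libraries labelled KO, a ratio that depends on which inhibitors are counted. Their summed TPM was 247.8, 263.9 and 247 in the KO libraries and 121.2, 127.8 and 123.4 in WT. Divided by the D cyclin total it was 2.09, 1.61 and 1.62 in the KO libraries and 2.15, 2.51 and 2.37 in the WT libraries. KO replicate 1 lay just under the lowest WT library (mean 1.77 ± 0.274 against 2.34 ± 0.178, SD, n = 3 each; exact two-sided permutation p = 0.1). Cdkn1a made up 70.9% to 82.5% of the inhibitor sum in every library, and Cdkn2c 15.3% and 15.7% in KO replicates 2 and 3, 4.22% in KO replicate 1 and 5.45% to 7.19% in the WT libraries.

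Cdkn1c, which encodes p57, the remaining CIP and KIP inhibitor, is not one of the 10 genes but was more abundant than Cdkn1a in the WT libraries and differed in the opposite direction. Its level was 97.4, 28.9 and 33.5 TPM in the KO libraries and 123.2, 113 and 119.9 TPM in WT. The groups did not overlap, with KO replicate 1 nearest to WT (52.3 ± 34.7 against 132 ± 9.06 CPM, 0.396-fold, log2 -1.34, SE 0.453, edgeR adjusted p = 0.162). DESeq2 called it lower (adjusted p = 0.0259), as did edgeR without KO replicate 1 (log2 -2.02, adjusted p = 9.22e-06, range over its 15 alternatives 5.71e-07 to 0.391). With Cdkn1c added, the inhibitor sum was 345.3, 292.9 and 280.4 TPM in the KO libraries and 244.3, 240.8 and 243.3 TPM in WT, 1.26 times higher in place of 2.04. Per D cyclin transcript it was then 2.91, 1.78 and 1.84 in the KO libraries and 4.34, 4.73 and 4.68 in WT (exact two-sided permutation p = 0.1).

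Rb1 (chr14:73192858-73325951) encodes the retinoblastoma protein, the target of the cyclin D kinases, and it split the KO libraries in the opposite sense to Cdkn2c. KO replicates 2 and 3 held 8.73 and 16 CPM of it, but it was at 46.5 CPM in KO replicate 1, and at 33.8, 33.7 and 46.8 CPM in WT. The groups overlapped and Rb1 was not called (0.623-fold, log2 -0.68, SE 0.609, 95% interval -2.19 to 0.82, edgeR adjusted p = 0.505). Without KO replicate 1 it was lower (log2 -1.61, edgeR adjusted p = 0.00441, range over its 15 alternatives 0.00441 to 0.774), in the fit that called 26% of all genes lower. The correction for GC content and length brought its log2 difference to -0.33 with all libraries and, without KO replicate 1, to -0.62 (edgeR adjusted p = 0.00729). Lpar6, a lysophosphatidic acid receptor gene that lies within Rb1 on the opposite strand, measured 91.9, 40.1 and 37.4 CPM in the KO libraries against 102.1, 94.7 and 104.1 CPM in WT (edgeR adjusted p = 0.251). Only reads from the stretch that both genes span could be mixed up, and only if the counting ignored strand, which is not given. Whether exons of the pair overlap was not examined. Other protein-coding genes in the RefSeq table that touch one of the 10 were Bysl at Ccnd3, Tspan31 at Cdk4 and LTO1 at Ccnd1, with log2 differences of -0.08, -0.01 and 0.11 and adjusted p of 0.692, 0.971 and 0.522 by edgeR.

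Myc (chr15:61985341-61990361) was low in all libraries and did not pass the test. It measured 12.2, 16.5 and 14 CPM in the KO libraries against 10.9, 9.94 and 10.1 CPM in WT. The groups did not overlap, but KO replicate 1 was only 1.18 times the WT mean (1.38-fold, log2 0.46, SE 0.151, 95% interval 0.09 to 0.83, edgeR adjusted p = 0.144). Without KO replicate 1 Myc was higher (log2 0.58, edgeR adjusted p = 0.0069, range over its 15 alternatives 0.0069 to 0.438). The same correction brought the log2 difference with all libraries to 0.29 and that of Cdk4 to 0.15, neither of which was called, and without KO replicate 1 the corrected value of Myc was 0.34 (edgeR adjusted p = 0.0269).

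In TPM, Cdkn1a and Cdk4 were the most abundant of the 10 in both groups, in opposite order. In the KO libraries Cdkn1a was first at 192.6 ± 11.9 TPM, ahead of Cdk4 at 137.4 ± 3.27, and in the WT libraries Cdk4 was first at 101.1 ± 2.45, ahead of Cdkn1a at 91 ± 3.61, with no overlap between these neighbours in either group (SD, n = 3 each). Ccnd3 came next in both, at 80.1 ± 8.27 and 40.6 ± 2.74 TPM. In the KO libraries it overlapped Ccnd1, which followed at 61.8 ± 17.1 TPM. In the WT libraries Ccnd1 stood at 11.9 ± 0.465 TPM, behind Cdkn1b at 24.9 ± 2.82 and overlapping Rb1 at 13.1 ± 3.24. In the KO libraries Cdkn1b, Cdkn2c, Cdk6, Myc, Rb1 and Ccnd2 followed in that order, each overlapping the next. In the WT libraries Cdkn2c, Cdk6 and Myc, which overlapped one another in that order, came before Ccnd2 at 0.547 ± 0.17 TPM.

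With all 6 libraries and TMM factors, edgeR called none of the remaining inhibitors, pocket proteins and E2F factors. Of the other CDK inhibitors and pocket proteins, 0 of 4 tested were called by edgeR, with 3 at an unadjusted p under 0.05, which 22.7% of all genes had. Cdkn1c, the most abundant of these in the WT libraries, is given above. The gene with the smallest p was Cdkn2d, the INK4 inhibitor p19. Cdkn2d measured 15.6, 28.9 and 25.3 CPM in the KO libraries against 14.4, 14.5 and 11.4 CPM in WT (edgeR adjusted p = 0.137). Cdkn2a was at 0 counts in the WT libraries and under 1 CPM in the KO libraries, and Cdkn2b was under 1 CPM throughout. Of 5 tested, edgeR called 2 higher and 1, Cdkn1c, lower without KO replicate 1. Of 10 E2F and DP factors edgeR called 0, with 5 at an unadjusted p under 0.05 and 3 called higher by DESeq2. E2f2, an activator E2F, had the smallest p (54.9 ± 9.71 against 33.3 ± 2.6 CPM, edgeR adjusted p = 0.0638), and with upper-quartile factors it was called (edgeR adjusted p = 0.0476, range over its 15 alternatives 0.00287 to 0.295). With KO replicate 1 left out, edgeR called 6 of the 10 factors higher and 0 lower, where it called 23.6% of all genes higher and 26% lower.

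Genes of S phase and mitosis mostly had log2 differences above 0, with few calls. Of 17 S-phase genes known as E2F targets, 2 rose and 0 fell, against 2.26% and 1.06% of all genes tested. The log2 difference was above 0 for 16 of the 17, with a median of 1.81 against -0.01 over all genes. By edgeR 16 were at an unadjusted p under 0.05, which 22.7% of all genes had. Top2a, the topoisomerase that untangles chromosomes, rose from 8.26 ± 1.28 to 46 ± 20.7 CPM (edgeR adjusted p = 0.0387). Mki67, the proliferation marker Ki-67, measured 45.6, 41.1 and 102 CPM in the KO libraries against 9.71, 12.2 and 14.5 CPM in WT (5.18-fold, edgeR adjusted p = 0.0464). Both were above the WT range in KO replicate 1 too, but other genes of the list were not: Rrm2, a subunit of ribonucleotide reductase, measured 4.07, 62.7 and 55.2 CPM in the KO libraries against 3.49, 4.51 and 3.6 CPM in WT. Pcna, the sliding clamp of DNA polymerase, was the 1 gene of the list with a log2 difference below 0 (324 ± 62.5 against 406.2 ± 14 CPM, edgeR adjusted p = 0.265). Of the 10 later cyclins, kinases and CDC25 phosphatases edgeR called 0, with 8 at an unadjusted p under 0.05, a median log2 difference of 2.18 and 7 called higher by DESeq2. Ccne2, which encodes cyclin E2, was the one with the smallest p (2.65 ± 1 against 0.704 ± 0.062 CPM, edgeR adjusted p = 0.0561). Without KO replicate 1 all 10 of these genes and 16 of the 17 S-phase genes were called higher, where 23.6% of all genes were. None of the 17 S-phase genes was called by limma-voom, which had Top2a at an adjusted p of 0.0657 (range over its 15 alternatives 4.07e-08 to 0.234).

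Of the 8 tested partners and antagonists of MYC edgeR called 0 with all 6 libraries (DESeq2 called 1 higher), with 2 at an unadjusted p under 0.05 and a median log2 difference of 0.05. Without KO replicate 1 edgeR called 4 of 9 tested higher and 1 lower, where it called 23.6% of all genes higher and 26% lower. Mxd1, a MAX partner that opposes MYC, had the smallest p (21.4 ± 0.564 against 16.6 ± 1.95 CPM, edgeR adjusted p = 0.149). Of 20 genes known as MYC targets, Cdk4 among them, 0 rose and 1 fell, against 2.26% and 1.06% of all genes tested. Their median log2 difference was -0.12. The one that fell was Tfrc, the transferrin receptor, at 31.6 ± 11.3 against 139.6 ± 20.5 CPM (0.226-fold, edgeR adjusted p = 0.0334). The count was 2 higher and 8 lower of these 20 without KO replicate 1, where 23.6% of all genes were called higher and 26% lower.

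Beside Cdkn1a, 3 other genes known as p53 targets were called higher. Of 19 tested, Cdkn1a included, 4 rose and 0 fell, against 2.26% and 1.06% of all genes tested. The log2 difference was above 0 for 12 of the 19 and below 0 for the rest, with a median of 0.17. The list had 7 called higher, 6 lower and a median of 0.09 without KO replicate 1. In that fit 23.6% of all genes were called higher and 26% lower. Phlda3, an inhibitor of AKT signalling, measured 20.9, 18.6 and 22.3 CPM in the KO libraries against 8.96, 9.36 and 9.37 CPM in WT (2.23-fold, edgeR adjusted p = 0.0157). Sesn2, a stress-induced regulator of mTORC1, rose 1.87-fold (edgeR adjusted p = 0.0219), and Zmat3, an RNA-binding protein, rose 1.58-fold (edgeR adjusted p = 0.0326). In KO replicate 1 Phlda3, Sesn2 and Cdkn1a lay between the values of the other KO libraries, and Zmat3 was above them.

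Of the growth control genes of macrophages, 2 of 16 rose and 1 fell, against 2.26% and 1.06% of all genes tested. Without KO replicate 1 the count was 8 higher and 3 lower, where 23.6% of all genes were called higher and 26% lower. Csf1, the growth factor that induces D cyclins in macrophages, measured 31, 28.9 and 38.4 CPM in the KO libraries against 6.34, 6.87 and 4.68 CPM in WT, a 5.49-fold rise (log2 2.46, SE 0.199, edgeR adjusted p = 0.0106). Csf1r, its receptor, rose 1.72-fold, and Csf2ra, a chain of the GM-CSF receptor, fell to 0.673 of its WT level (edgeR adjusted p = 0.0208 and 0.0432). Of 9 genes for the turnover of D cyclins, p27 and MYC, edgeR called 0, with 3 at an unadjusted p under 0.05 and 1 called higher by DESeq2, and without KO replicate 1 it called 3 higher and 2 lower. Ambra1, the adaptor that targets D cyclins for degradation, had the smallest p (68.4 ± 2.07 against 55.9 ± 3.21 CPM, edgeR adjusted p = 0.12).

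**Figure D4:**
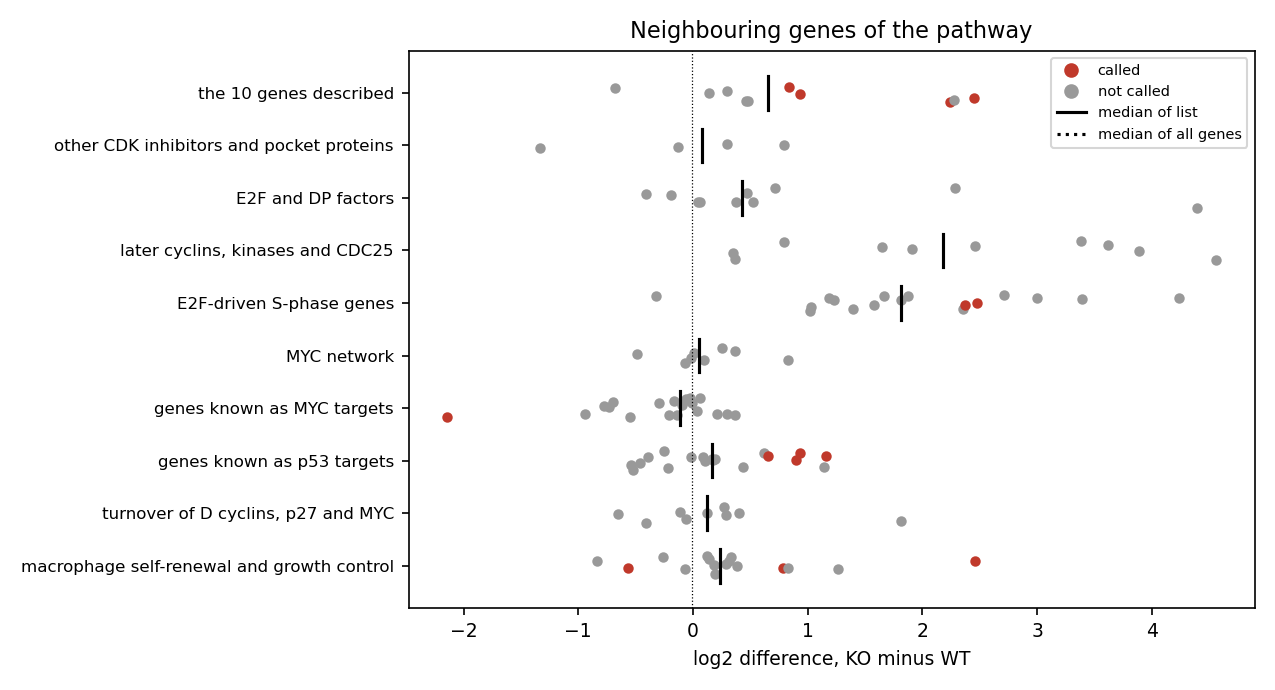
Log2 difference between libraries labelled KO and WT (x axis) of each tested gene in the 10 genes described and in 9 lists of related genes (y axis); red points were called, black bars are list medians and the dotted line is the median of all genes tested, at -0.01. The lists of later cyclins and S-phase genes have medians of 2.18 and 1.81, with 0 and 2 red points, and Cdk4, Cdkn1a and Cdc25a stand in more than 1 row.

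Over the 6 libraries, the genes whose log2 CPM followed Ccnd1 most closely, among 8165 genes averaging 10 CPM or more, were Itgal (Pearson's r = 0.999), the integrin alpha chain of LFA-1, Ccl9 (r = 0.998), a chemokine, and Mars (r = 0.998), a methionyl-tRNA synthetase. Those closest to Myc were Ppm1d (r = 0.998), a phosphatase of the p53 response, Cdc25a (r = 0.993), which activates CDK2, and Parp1 (r = 0.993), a DNA repair enzyme. These are the highest of many values over 6 libraries that fall into few clusters, and they describe the libraries only.

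The cells carried macrophage markers and little of other types. Adgre1, the F4/80 antigen, was at 662 CPM or more and Cd68 at 2114 CPM or more in every library, whereas Timd4, a marker of long-lived resident peritoneal macrophages, was at 0 to 1.25 CPM. The summed level of the fibroblast markers, cells that also express Ccnd1, was 2.15 CPM in KO replicate 1, the lowest of all, 21.2 and 33.4 CPM in KO replicates 2 and 3 and 5.17 to 8.14 CPM in the WT libraries. In KO replicate 1 Ccnd1 was at 90 CPM against 28.1 ± 0.958 CPM in WT, and it was highest, at 174.8 CPM, in KO replicate 2. The summed B cell markers, which can bring Ccnd2 and Ccnd3, were at 1.33 to 3.41 CPM in the KO and 1.56 to 1.96 CPM in the WT libraries. The T and NK cell markers were at 0.205 CPM or less. The platelet markers were at 16.1 to 54.1 against 59.7 to 103.4 CPM. By edgeR 3 of these 5 were lower, where 1.06% of all genes were. The mean of another of the 5, Pf4, went the other way (log2 0.41, edgeR adjusted p = 0.598). Pf4 measured 44.9, 16.2 and 14.5 CPM in the KO libraries against 17.6, 21.8 and 17.6 CPM in WT. Of the fibroblast markers edgeR called 0 of 3 tested with all libraries (0 at an unadjusted p under 0.05). Without KO replicate 1 it called 5 of 5 higher, with a median log2 difference of 2.28, where it called 23.6% of all genes higher. The summed eosinophil markers were at 0.881 to 13.8 CPM in the KO and 19.5 to 26.8 CPM in the WT libraries, and the dendritic cell markers at 8.53 CPM in KO replicate 1 and at 1.56 CPM or less elsewhere. Lyz2, the lysozyme gene of macrophages, was at 13171 CPM in KO replicate 1 and at 29743 CPM or more in the other libraries. The part of these cells in the results was not tested. In bulk RNA a change in the share of dividing cells and a change in RNA per cell cannot be told apart.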

How the data were processed

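Messenger RNA of sorted and plated RELM-α+ peritoneal macrophages was sequenced on an Illumina instrument, per the labels' protocols. Reads were cleaned with fastp 0.18.0 for the build GRCm39, per the submitters' processing notes, but 8 of the 10 genes start in the table where RefSeq GRCm38.p6 places them. The aligner, counting program and strand setting are unknown: not given in the sources used here. Per gene, the authors deposited estimated counts, of which 4.82% to 5.49% per library were not whole; they were rounded. The deposited TPM values served for levels between genes, and the deposited FPKM values were not used. The authors deposited DESeq2's log2 fold changes and q-values or p-values too, per the file headers.

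Genes passing filterByExpr of edgeR 4.0.16 (minimum count 10; 11424 genes, 4045 not tested) were compared with TMM factors, group as the only term and the robust quasi-likelihood F test, Benjamini-Hochberg adjusted over all genes tested. Alternatives were RLE and upper-quartile factors, no filter, a floor of 10 CPM on the mean, DESeq2 1.42.0, limma-voom (limma 3.58.1), a block for the replicate number, leaving out each library, an adjusted p under 0.01 and, for TPM values, CPM sums. Correcting for the GC content and length of transcripts (smooth terms per library, mgcv 1.9.3, for 98% of tested genes) and Cdkn1c in the inhibitor sum were alternatives added after seeing the data. Tested on simulated data of the comparison with 11424 genes, the fit called 20 of 100 genes changed 2-fold and 82 of 100 changed 4-fold. No 2 libraries agreed within sampling noise (chi-square per degree of freedom at least 6.74).

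The genes, lists and tests were chosen with earlier results of these data known. Named from each list were up to 3 called genes with the smallest adjusted p that averaged 1 CPM or more, or else the gene with the smallest p; from all genes, the 3 most correlated with Ccnd1 and with Myc, leaving out predicted genes. Cdkn1c, Cdkn2a, Cdkn2b, Lpar6, Bysl, Tspan31, LTO1, Rrm2, Pcna and the markers named were chosen after their values were seen.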

Additional observations from a re-analysis of the deposited data

How the results depend on the processing

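The log2 difference of each of the 10 genes, called or not, kept its direction in every alternative in which the gene was tested. Of the 10 genes, edgeR called 4, against 9 without KO replicate 1 when GC content and length were corrected, 0 at an adjusted p under 0.01 (7 at an unadjusted p under 0.05) and 0 to 8 with 1 library left out. Of all genes it called 379 (68.1% higher), against 229 with a mean of at least 10 CPM, 1344 by DESeq2, 15 at an adjusted p under 0.01, 729 with the GC and length correction (390 higher and 339 lower, 53.5% higher), 5894 with that correction without KO replicate 1, and 5 to 5793 with 1 library left out. The cause was not tested, other than that the last alternatives hold fewer libraries. With the replicate number as a block, edgeR called 0 of the 10 genes (5 at an unadjusted p under 0.05) and 0 of all genes (1976 at an unadjusted p under 0.05). The numbers share only a label: deviations of same-numbered libraries correlated at -0.16, 0.25 and -0.27, and not every library correlated best with its own number. The sign-flip test over these pairs gave an exact p of 0.25 for the D cyclin total, the Ccnd1 share and the inhibitors per D cyclin, the smallest it allows. With 1 library left out the difference in Cdk6 share ran from -1.38 to 2.15 percentage points, that of the D cyclin total from 82.4 to 105.3 TPM and that of the Ccnd1 share from 16.6 to 21.8 percentage points. Ccnd2, at 24 to 42 counts in the WT libraries, is the gene most limited by depth, and it was not tested with a mean of at least 10 CPM.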
